A study of Mus musculus with 12 samples.

Results

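The respiratory chain of mouse liver was followed through the transcripts of its mitochondrially and nuclear encoded subunits. Members were the protein-coding genes whose symbols begin with mt-Nd, mt-Co, mt-Cytb or mt-Atp, or with Nduf (a, b, c, s or v series), Sdh, Uqcr, Cox4 to Cox8 or Atp5, without pseudogene symbols. Of 56065 genes listed, the rule gave 13 from the mitochondrial genome and 89 from the nuclear genome. By complex, the mitochondrial genome gave 7 members of complex I, 1 of complex III, 3 of complex IV and 2 of complex V. The nuclear genome gave 38 of complex I, 4 of complex II, 8 of complex III, 20 of complex IV and 19 of complex V, with Ndufa4 and Ndufa4l2 counted in complex IV. After the filter on low counts, 93 members were tested, all 13 mitochondrially encoded and 80 nuclear encoded. Ndufb11b, Cox4i2, Cox6a2, Cox6b2, Cox7b2, Cox8b, Cox8c, Ndufa4l2 and a second gene identifier of Atp5po were not tested. Ndufb11b, Cox7b2, Cox8c and the second Atp5po identifier had no read in any of the 12 libraries.

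Livers came from AhR-floxed mice, which carry loxP sites in the aryl hydrocarbon receptor gene, and the labels name no Cre. All were labelled male, were 8 weeks old at the start and spent 20 weeks on the diet. The MD+CA group (4 libraries) ate a steatohepatitis (MASH) diet, in which fat supplied 40 kcal% and fructose 20 kcal% with cholesterol added at 2%, and received cinnabarinic acid, a tryptophan metabolite, by intraperitoneal injection at 12 mg/kg 3 times per week. The MD group (4 libraries) ate the same diet and received the vehicle, 0.2% DMSO in saline. The CD group (4 libraries) ate a control diet in which fat supplied 10 kcal% and sucrose was matched, and the labels do not say whether these mice were injected. The design compares the diet (MD against CD) and the compound on the diet (MD+CA against MD). The labels do not say that each library is a separate mouse, so p-values measure the spread between these libraries.

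Electrons from NADH enter the chain at complex I and those from succinate at complex II. They pass through ubiquinone, complex III and cytochrome c to complex IV, which reduces oxygen, and the proton gradient built on the way drives ATP synthesis by complex V. Complex II is encoded wholly in the nucleus, while complexes I, III, IV and V combine subunits of both genomes, and the mitochondrial mRNAs are cut from long transcripts of a circular genome and, with the exception of ND6 in human cells, receive short poly(A) tails. Hepatocytes are rich in mitochondria, and fatty liver is a setting in which their oxidation of fat has been widely studied.

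Libraries held 9089585 to 14492587 estimated reads. Hepatocyte markers (8 genes such as Alb and Apob) summed to 52510 to 69750 CPM (counts scaled to library size, the CPM unit of edgeR) in MD+CA, 38120 to 66320 CPM in MD and 61230 to 76260 CPM in CD livers, with none at 0 and the lowest value in MD replicate 2. In bulk tissue, fewer cells of a type and less RNA per cell cannot be told apart. Xist was counted in all 12 libraries and the Y-linked Ddx3y, Uty, Eif2s3y and Kdm5d in none, which goes against the label male. The fragment length allowance, the bases by which the deposited effective length falls short of the transcript length, was shortest in MD replicate 2 (221 bases), MD+CA replicate 1 (227) and MD replicate 1 (230) and was 246 to 280 bases in the other libraries. These 3 libraries stood apart in several measures below, so results are also given without them. The MD group is then replicates 3 and 4 alone. MD+CA replicate 2 held 339.8 CPM of 8 muscle markers, against 0.447 to 13.04 CPM in the other 11 libraries. Summed immediate early genes (20 genes such as Fos and Jun) reached 161.6 to 303.8 CPM in MD+CA, 334.3 to 2089 CPM in MD and 165.8 to 497.6 CPM in CD livers, without overlap between MD+CA and MD. Of the 16 tested, 7 (Btg2, Fos, Egr1, Zfp36, Jun, Junb and Ier2) were called lower in MD+CA against MD, where 1.64% of all genes were. Jun was called higher in MD against CD, where 6 of 13631 genes were. Kupffer cell markers (10 genes) summed to 392.7 to 787.7 CPM in MD+CA, 189.3 to 320.4 CPM in MD and 238.3 to 300.1 CPM in CD livers, and none was at 0. Of these markers, 4 (Cd5l, Marco, C1qa and Vsig4) were called higher in MD+CA against MD, where 145 of 13631 genes tested were called higher. Stellate cell markers (9 genes, none at 0) summed to 111.1 to 203.0 CPM in MD+CA, 194.9 to 256.1 CPM in MD and 117.8 to 154.8 CPM in CD livers, without overlap between MD and CD, and none was called. The part of muscle RNA, of these cell types or of immediate early genes in the results below was not tested.

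Several mitochondrial transcripts have near-identical copies in the nuclear genome, and these sequences are shown because the deposited counts split reads between both origins. The first 60 bases of the mt-Co2, mt-Co3 and mt-Atp6 transcripts (GENCODE M21 models, GRCm38) are identical in the chromosome 1 pseudogenes Gm28661, Gm28437 and Atp6-ps, and the identity runs over all 681, 783 and 678 bases of those copies.
mt-Co2: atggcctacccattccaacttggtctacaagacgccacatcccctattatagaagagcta
mt-Co3: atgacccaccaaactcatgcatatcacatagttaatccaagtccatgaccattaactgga
mt-Atp6: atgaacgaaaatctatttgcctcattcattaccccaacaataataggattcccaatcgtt
The mt-Nd3 transcript and the chromosome 1 pseudogene Gm28438 differ at 1 base of 345, T3C, counted from 1 at the 5′ end and shown in capitals.
mt-Nd3: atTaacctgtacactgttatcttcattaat
Gm28438: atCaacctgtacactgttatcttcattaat
Reads from the 3 identical stretches carry no letter that tells gene and copy apart, and mt-Nd3 has the single letter shown.

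The share of a pair's reads given to the copy was large and differed between libraries. For mt-Atp6, a subunit of the proton channel of complex V, the copy held 98.03% of the reads in MD replicate 3 and 49.6% to 60.8% in the other 11 libraries. For mt-Co2, which takes electrons from cytochrome c into complex IV, the copy held 87.5% in MD+CA replicate 1, 90.1% in MD replicate 1 and 93.8% in MD replicate 2, and 59.9% to 63.0% elsewhere. These are the 3 libraries with the shortest fragment allowance. For mt-Co3 the share was 43.3% to 70.8%, for mt-Nd3 0% to 100%, and for mt-Nd4l (copy Gm10222) 0% to 47.6%. Among nuclear encoded pairs, Ndufb4c, identical to the complex I accessory gene Ndufb4 over 390 bases, took 49.5% in MD+CA replicate 1, 49.6% in MD replicate 1, 57.5% in MD replicate 2 and none elsewhere. Gm10221, identical to the complex V gene Atp5mg over 309 bases, took 28.7%, 22.9% and 30.5% in those libraries and 0% to 15.7% elsewhere. The counts of these members as deposited are therefore uncertain. With copies added, Ndufb4 had log2 fold changes of 0.23 ± 0.28 for MD against CD and -0.01 ± 0.28 for MD+CA against MD, against -0.27 and 0.27 as deposited, so both signs turned. Those of Atp5mg were 0.15 ± 0.20 and -0.29 ± 0.20 with copies and 0.01 and -0.21 as deposited, and neither gene was called.

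**Figure D1:**
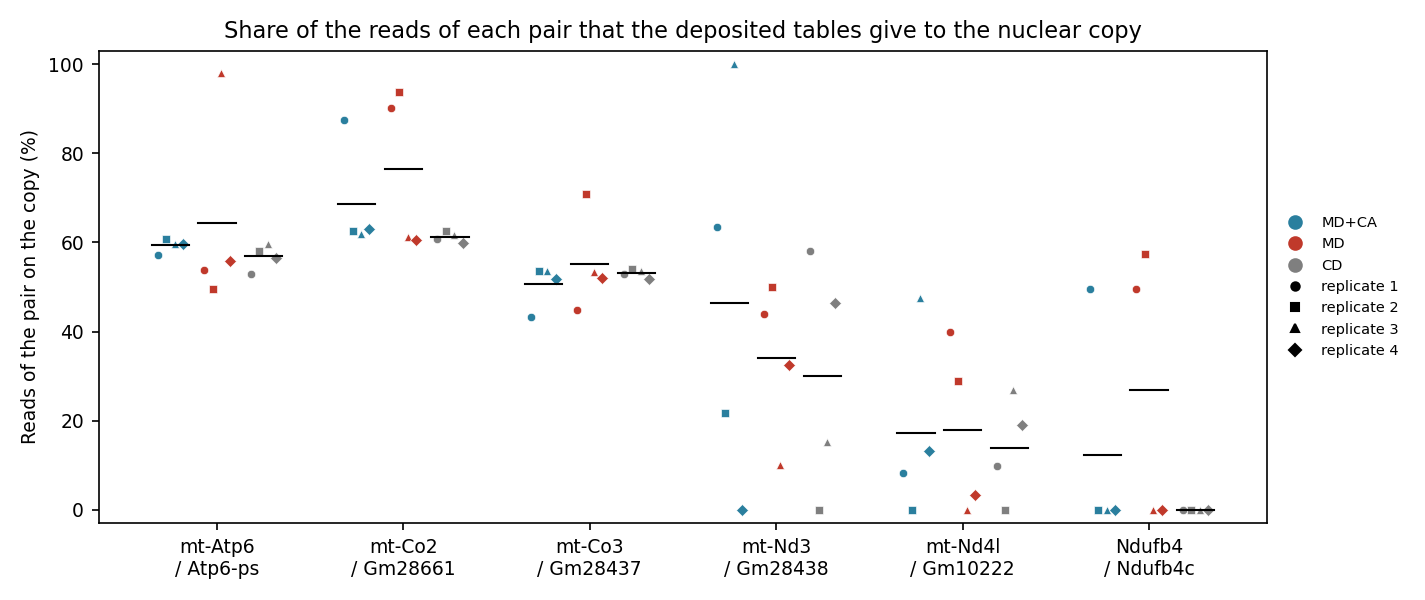
Share of the reads of each member and its nuclear copy that the deposited tables give to the copy (vertical axis, percent), by library. Colours mark groups, symbols replicates and black lines group means. MD replicate 3 stands alone for mt-Atp6 (98.03%), and MD+CA replicate 1, MD replicate 1 and MD replicate 2 stand above the rest for mt-Co2 and Ndufb4.

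Most mitochondrially encoded transcripts had higher group averages in MD than in CD livers, with 1 library, MD replicate 3, near the CD level. No member passed an adjusted p of 0.05 in edgeR's quasi-likelihood test, where 0.088% of all 13631 genes tested were called. Of 93 members, 19 were higher and 2 lower (Sdha and Atp5f1a) at an unadjusted p under 0.05, against 10.5% and 9.4% of all genes, and 9 of the 19 were mitochondrially encoded. All MD libraries lay above all CD libraries for 12 members, 1 mitochondrially and 11 nuclear encoded, where 5.99% of all genes did so. DESeq2 called 6 members (Ndufa3, mt-Co3, Ndufb1, mt-Nd4, mt-Nd1 and mt-Cytb), where it called 4.61% of all genes, and limma voom 3 (Ndufa3, Ndufb1 and mt-Co3), where it called 2.74%. The median log2 fold change of the 13 mitochondrially encoded members was 0.92, that of the 80 nuclear encoded members 0.19 and that of all genes 0.04. Without the 3 libraries with the shortest fragment allowance, the mitochondrial median was 0.37 and the nuclear one 0.24. That fit keeps only replicates 3 and 4 of the MD group, and so includes the library near the CD level. Without MD replicate 2 alone the mitochondrial median was 0.55.

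In complex I, mt-Nd1, a core membrane subunit near the ubiquinone site, had 9519, 14390, 4471 and 8110 CPM in MD livers, against 4578, 3779, 3653 and 5663 CPM in CD livers. Of the MD libraries, 3 lay above all CD libraries and replicate 3 lay within them. Its log2 fold change was 1.05 ± 0.32 (SE; adjusted p = 0.129). mt-Nd4, a proton-pumping subunit, had 9541, 15110, 3461 and 7245 CPM in MD and 4627, 2771, 2328 and 4395 CPM in CD livers, with the same library inside the CD range. Its log2 fold change of 1.32 ± 0.40 had an adjusted p of 0.124. mt-Nd2 and mt-Nd5, the other long proton-pumping subunits, had log2 fold changes of 0.77 and 0.92 with overlapping groups. The short mt-Nd3 was low throughout, at 19.0 to 165.8 CPM in MD+CA, 48.4 to 491.7 CPM in MD and 24.1 to 115.1 CPM in CD livers with its copy added. Its log2 fold changes were then 2.06 ± 0.73 for MD against CD (adjusted p = 0.157) and -1.89 ± 0.73 for MD+CA against MD (adjusted p = 0.141), with overlap in both. mt-Nd4l had a log2 fold change of 0.36 ± 0.39 for MD against CD as deposited (edgeR adjusted p = 0.623) and 0.49 ± 0.36 with its copy added (0.450); its model shares bases with that of mt-Nd4, so reads there are uncertain.

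mt-Cytb, the only mitochondrially encoded subunit of complex III, had 18180, 28570, 8694 and 14320 CPM in MD livers, against 10860, 8394, 7060 and 9391 CPM in CD livers. Again replicate 3 of the MD group lay within the CD range. The log2 fold change was 0.97 ± 0.33 (adjusted p = 0.145).

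In complex IV, mt-Co1, the catalytic subunit that holds the oxygen-reducing centre, was the single mitochondrially encoded member with no overlap between groups in this comparison. It had 36750, 57610, 24440 and 29460 CPM in MD livers, against 19140, 22190, 22120 and 21970 CPM in CD livers. The log2 fold change was 0.80 ± 0.33 (adjusted p = 0.205). With copies added, mt-Co2 had 5653, 8799, 3005 and 4851 CPM in MD and 2457, 2114, 2145 and 3075 CPM in CD livers. The lowest MD library lay just under the highest CD library, and the log2 fold change was 1.19 with an edgeR adjusted p of 0.105, where 0.0881% of 13621 genes were called. On counts as deposited the log2 fold change of mt-Co2 was 0.13. mt-Co3, with copies added, had 4332, 7011, 2404 and 4312 CPM in MD and 1783, 1546, 1784 and 2703 CPM in CD livers, a log2 fold change of 1.21 (edgeR adjusted p = 0.111). With copies added, 11 of the 12 fits that left out 1 library called no member, and the adjusted p of both genes reached 0.330. The fit without MD replicate 3 called mt-Co2 and mt-Co3, with log2 fold changes of 1.40 and 1.42 (adjusted p = 0.049 for each), where 0.587% of genes were called. Without MD replicate 2 the log2 fold changes were 0.88 and 0.91, and without the 3 short-fragment libraries 0.68 and 0.78 (adjusted p = 0.468 and 0.473).

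In complex V, mt-Atp6 had 7772, 13390, 186.7 and 5917 CPM as deposited in MD livers, against 4717, 4190, 3532 and 3919 CPM in CD livers. The value of replicate 3 lay far below every other library. With copies added the values were 16820, 26570, 9493 and 13390 CPM in MD and 10030, 10020, 8766 and 9015 CPM in CD livers, and replicate 3 then fell within the CD range. The log2 fold change was 0.74 ± 0.67 as deposited and 0.81 ± 0.29 with copies added (edgeR adjusted p = 0.161). mt-Atp8, a small companion subunit whose model overlaps that of mt-Atp6, had 289.3, 371.8, 116.0 and 262.8 CPM in MD and 162.9, 99.7, 77.7 and 163.7 CPM in CD livers, with the same library inside the CD range.

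**Figure D2:**
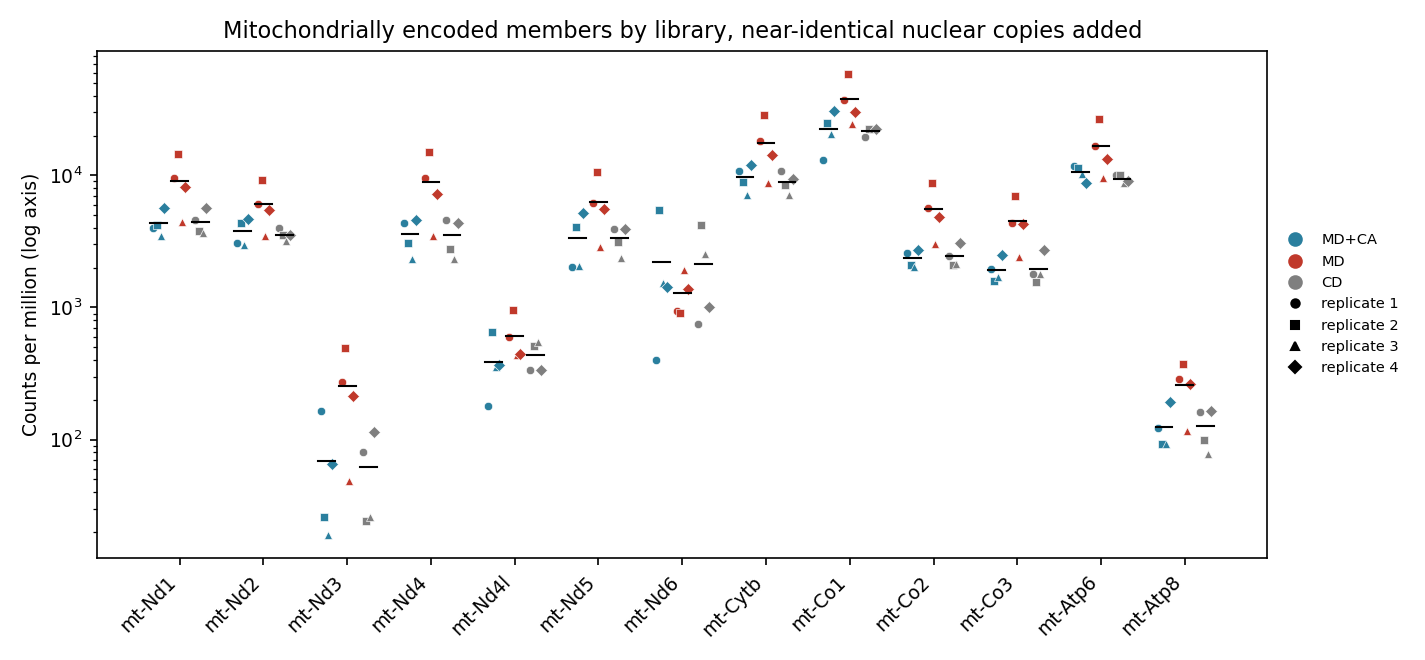
CPM of the 13 mitochondrially encoded members in each library with nuclear copies added (log axis). Colours mark groups, symbols replicates and black lines group means. MD replicate 2 is the highest library for most members, MD replicate 3 lies near the CD libraries, and mt-Nd6 shows a different order.

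MD+CA livers had lower averages than MD livers for 12 of the 13 mitochondrially encoded members, and 1 nuclear encoded member passed the test. The passing member was Ndufb1, an accessory membrane subunit of complex I; in all, 2.71% of genes tested were called in this comparison and 1.64% were called lower. It had 52.4, 45.6, 41.1 and 33.2 CPM in MD+CA livers, against 78.6, 76.6, 61.0 and 82.5 CPM in MD livers, with no overlap. It fell by 0.79 ± 0.18 on the log2 scale (adjusted p = 0.035). The call was lost in 8 of the 12 fits that left out 1 library, those without CD replicates 1 or 3, MD replicates 1, 2 or 4, or MD+CA replicates 2, 3 or 4, and without the 3 short-fragment libraries (log2 fold change -0.84, adjusted p = 0.118). At an unadjusted p under 0.05, 22 of 93 members were lower and none higher, against 11.6% of all genes in each direction, and 9 of the 22 were mitochondrially encoded. DESeq2 called 5 members (Ndufb1, mt-Co3, mt-Nd1, mt-Nd4 and mt-Atp8), where it called 8.91% of all genes, and limma voom Ndufb1 alone, where it called 2.99%. All MD+CA libraries lay below all MD libraries for Ndufb1 and Ndufa3, 2 of 93 members, against 5.21% of all genes. The median log2 fold change was -0.85 over the mitochondrially encoded members, -0.27 over the nuclear encoded ones and -0.00 over all genes. Leaving out 1 library gave -1.08 to -0.55 for the mitochondrially and -0.38 to -0.17 for the nuclear encoded members.

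The 4 MD libraries serve both comparisons, so a library that is high or low among them moves both. With the 3 short-fragment libraries left out, and so with MD replicates 3 and 4 alone, the mitochondrial median was -0.31 and the nuclear median -0.45. With copies added, mt-Co2 and mt-Co3 also passed, where 2.77% of genes were called and 1.69% called lower. mt-Co2 had 2580, 2105, 2016 and 2700 CPM in MD+CA livers, against 5653, 8799, 3005 and 4851 CPM in MD livers, with no overlap. It fell by 1.25 ± 0.30 (adjusted p = 0.040). mt-Co3 had 1972, 1578, 1689 and 2483 CPM in MD+CA and 4332, 7011, 2404 and 4312 CPM in MD livers, and 1 MD+CA library lay above the lowest MD library. It fell by 1.23 ± 0.31 (adjusted p = 0.049). In the 12 fits that left out 1 library, mt-Co2 stayed called in 3 (without CD replicate 4, MD replicate 3 or MD+CA replicate 1) and mt-Co3 in 1 (without MD replicate 3). Their adjusted p reached 0.106 and 0.129 without MD+CA replicate 2. Without the 3 short-fragment libraries the log2 fold changes of mt-Co2 and mt-Co3 were -0.79 and -0.81 (adjusted p = 0.223 and 0.279), and with the fragment length allowance as a covariate -0.89 and -0.94 (adjusted p = 0.203 and 0.233). With scaling factors computed without mitochondrially encoded genes, mt-Co3 had an adjusted p of 0.0502.

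Other core subunits did not pass. mt-Nd1 had 4019, 4225, 3470 and 5695 CPM in MD+CA livers against the MD values above, a log2 fold change of -1.07 ± 0.32 (adjusted p = 0.077). mt-Nd4 had 4351, 3096, 2328 and 4620 CPM in MD+CA livers and a log2 fold change of -1.30 ± 0.40 (adjusted p = 0.080). For both genes, MD replicate 3 lay within the MD+CA range. mt-Cytb had 10730, 8885, 7074 and 11960 CPM in MD+CA livers and a log2 fold change of -0.85 ± 0.33 (adjusted p = 0.144). mt-Co1 had 11880, 24750, 20490 and 30620 CPM in MD+CA livers and a log2 fold change of -0.76 ± 0.33 (adjusted p = 0.183). mt-Atp6 with copies added had 11850, 11300, 10180 and 8821 CPM in MD+CA livers, and its log2 fold change was -0.65 ± 0.29 (edgeR adjusted p = 0.193). Without MD replicate 3 on counts as deposited, 7 members were called lower (Ndufb1, mt-Nd4, mt-Nd1, mt-Co3, mt-Atp8, mt-Atp6 and mt-Cytb), where 7.1% of all genes were called and 3.81% called lower. Without MD+CA replicate 1 the called members were Ndufb1, Atp5f1e, Ndufb2, Ndufa3 and Uqcr10, where 5.63% of all genes were called.

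Between MD+CA and CD livers, edgeR's test called no member, where 0.528% of all genes tested were called, and no member had an unadjusted p under 0.05, against 6.16% of genes higher and 4.37% lower. DESeq2 and limma voom also called none. The median log2 fold change was 0.04 for the mitochondrially encoded members, with a range of -0.40 to 0.11, and -0.08 for the nuclear encoded ones, with a range of -0.42 to 0.31. Of the 80 nuclear encoded members, 16 were positive and 64 negative, where 7092 of 13631 genes were positive. Without the 3 short-fragment libraries the nuclear median was -0.20, with 10 of 80 positive, and that of all genes 0.01. No member had groups that did not overlap, against 3.48% of genes higher and 2.92% lower.

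mt-Nd6 was the exception among the mitochondrially encoded members. It is the only one encoded on the light strand, and the strand setting of the counting is not given in the sources used here, so reads from the opposite strand cannot be told apart. It had 397.3, 5429, 1521 and 1424 CPM in MD+CA, 944.5, 909.3, 1929 and 1391 CPM in MD and 748.9, 4196, 2545 and 1010 CPM in CD livers. High and low libraries occurred in MD+CA and CD livers alike, and the groups overlapped. Its log2 fold change was -0.72 ± 0.64 for MD against CD (adjusted p = 0.545) and 0.76 ± 0.64 for MD+CA against MD (adjusted p = 0.495). With the fragment length allowance as a covariate, the signs turned, to 0.55 and -0.63. Within the summed reads of the 13 members with copies added, mt-Nd6 held 0.729% to 7.68% in MD+CA, 0.5% to 2.97% in MD and 1.19% to 6.72% in CD livers.

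mt-Co1 held the largest average share of the mitochondrial transcript pool in each group, and the order of averages below it differed between groups. With copies added, mt-Co1 held 34.0% ± 7.0 of the 13 members' reads in MD+CA, 33.5% ± 3.0 in MD and 34.9% ± 3.5 in CD livers (SD, n = 4 each). mt-Cytb held 15.1% ± 3.3, 14.9% ± 1.1 and 14.4% ± 2.1 in the same order of groups. mt-Atp6 held 16.9% ± 4.5 in MD+CA, 14.4% ± 0.3 in MD and 15.3% ± 1.1 in CD livers. Only its MD average lay below that of mt-Cytb. mt-Nd4 held 5.62% ± 1.73 in MD+CA, 7.36% ± 1.40 in MD and 5.65% ± 1.62 in CD livers. Only its MD average lay above that of mt-Nd2 (5.79%, 5.35% and 5.74%). In single libraries, each group held both orders of mt-Atp6 and mt-Cytb, and of mt-Nd4 and mt-Nd2. mt-Co2 held 3.71% ± 0.75 in MD+CA, 4.86% ± 0.19 in MD and 3.94% ± 0.54 in CD livers, and the MD+CA library with the highest share, 4.74%, lay above the lowest MD library, 4.62%. MD+CA replicate 1 departed most, with 23.9% for mt-Co1 and 21.8% for mt-Atp6.

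Nuclear encoded members lay far below the most abundant mitochondrial ones. Per kilobase of transcript and averaged over the 12 libraries, mt-Atp6 with its copy reached 17900 CPM, mt-Co1 17340 CPM and mt-Cytb 10500 CPM. Among nuclear encoded members the highest levels per kilobase were 1596 CPM for Atp5pd, a peripheral stalk subunit of complex V, 1357 CPM for Uqcrb, a subunit of complex III near its ubiquinone site, and 1058 CPM for Cox6c, an accessory subunit of complex IV. Of the 80 tested nuclear encoded members, 54 had positive and 26 negative log2 fold changes for MD against CD. For MD+CA against MD, 18 were positive and 62 negative. Of all 13631 genes tested, 7324 and 6779 were positive in these comparisons.

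In complex I, the 37 nuclear encoded members tested had a median log2 fold change of 0.20 for MD against CD and -0.25 for MD+CA against MD. Ndufa3, a small accessory membrane subunit, had 31.7, 21.1, 27.3 and 17.0 CPM in MD+CA, 39.7, 36.7, 35.1 and 33.2 CPM in MD and 18.3, 20.0, 21.2 and 21.8 CPM in CD livers. The MD libraries lay above all libraries of the other groups. The log2 fold change was 0.83 ± 0.19 for MD against CD (adjusted p = 0.104) and -0.58 ± 0.19 for MD+CA against MD (adjusted p = 0.102). Ndufb1 had 43.4, 45.1, 44.6 and 51.1 CPM in CD livers, below all 4 MD libraries, with a log2 fold change of 0.70 ± 0.18 for MD against CD (adjusted p = 0.113). Among catalytic subunits, Ndufs1, which carries iron-sulfur clusters, had overlapping groups with log2 fold changes of -0.10 and -0.03, and Ndufv1, which binds NADH, of -0.02 and -0.05. Ndufa6, the nuclear encoded member of complex I with the highest TPM, had log2 fold changes of -0.27 ± 0.24 and -0.15 ± 0.24. Groups that did not overlap were found for 7 members of complex I with MD above CD, namely Ndufa2, Ndufa3, Ndufa5, Ndufa11, Ndufb1, Ndufb3 and Ndufb7, where 5.99% of all genes did so.

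In complex II, which is also an enzyme of the citric acid cycle, the catalytic subunits had log2 fold changes of opposite sign. Sdha, its flavin-carrying catalytic subunit, had 166.5, 82.5, 327.3 and 262.9 CPM in MD livers, against 389.8, 405.8, 328.8 and 347.8 CPM in CD livers. All MD libraries lay below all CD libraries, by a small margin for replicate 3, and 7.12% of all genes had groups that did not overlap with MD lower. The log2 fold change was -0.81 ± 0.34 (adjusted p = 0.210). In MD+CA livers Sdha had 308.7, 321.7, 215.1 and 453.8 CPM, a log2 fold change of 0.63 ± 0.34 over MD (adjusted p = 0.279). Sdhb, the iron-sulfur subunit, had 166.2, 99.6, 96.7 and 115.3 CPM in MD+CA, 228.1, 161.7, 161.0 and 176.0 CPM in MD and 160.7, 110.1, 107.8 and 174.2 CPM in CD livers. Its log2 fold changes were 0.39 ± 0.24 for MD against CD (adjusted p = 0.359) and -0.61 ± 0.24 for MD+CA against MD (adjusted p = 0.149), opposite in sign to those of Sdha. Sdhc and Sdhd, the membrane anchors, had overlapping groups in both comparisons.

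In complex III, Uqcr10, a small accessory subunit, had 46.8, 27.2, 32.2 and 26.5 CPM in MD+CA, 55.5, 45.5, 42.7 and 61.1 CPM in MD and 27.4, 33.5, 33.5 and 48.7 CPM in CD livers. The groups overlapped in both comparisons through 1 library each. Its log2 fold changes were 0.52 ± 0.23 (adjusted p = 0.230) and -0.63 ± 0.23 (adjusted p = 0.127). Uqcrb had log2 fold changes of the other sign, -0.40 ± 0.28 and 0.32 ± 0.28, also with overlap. Uqcrq, a small subunit, had groups that did not overlap with MD above CD (log2 fold change 0.38, adjusted p = 0.410). The Rieske iron-sulfur protein Uqcrfs1 and the large core proteins Uqcrc1 and Uqcrc2 overlapped between groups, with log2 fold changes between -0.34 and 0.29 for MD against CD.

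In complex IV, Cox6b1, an accessory subunit that joins the monomers of the enzyme, had 57.0, 28.2, 46.8 and 38.8 CPM in MD+CA, 84.5, 57.7, 52.7 and 61.9 CPM in MD and 39.6, 31.1, 36.4 and 48.7 CPM in CD livers. MD libraries lay above all CD libraries, and 1 MD+CA library reached into the MD range. Its log2 fold change was 0.72 ± 0.23 for MD against CD (adjusted p = 0.135) and -0.59 ± 0.23 for MD+CA against MD (adjusted p = 0.151). Cox7c, another small subunit, had 169.0, 144.5, 128.6 and 112.6 CPM in MD+CA, against 237.3, 201.4, 154.4 and 219.9 CPM in MD livers, with 1 library overlapping (log2 fold change -0.55 ± 0.21, adjusted p = 0.139). Cox6c had log2 fold changes of 0.30 ± 0.26 for MD against CD and -0.47 ± 0.26 for MD+CA against MD, with overlap. Over the 13 nuclear encoded members tested, the medians were 0.19 and -0.29.

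In complex V, Atp5f1a, the nucleotide-binding alpha subunit of the head, had 353.5, 219.8, 654.6 and 546.8 CPM in MD livers, against 716.3, 838.0, 717.2 and 651.3 CPM in CD livers, and MD replicate 3 overlapped the lowest CD library. Its log2 fold change was -0.72 ± 0.30 (adjusted p = 0.210), and 0.58 ± 0.30 for MD+CA against MD (adjusted p = 0.264). The beta subunit Atp5f1b, which carries the catalytic sites, and the gamma subunit Atp5f1c of the central stalk had log2 fold changes of -0.54 and -0.55 for MD against CD. Most other members had the opposite sign. Of the 18 nuclear encoded members tested, 13 were positive and 5 negative for MD against CD, with a median of 0.20. For MD+CA against MD the median was -0.37. Groups that did not overlap were found for Atp5me and Atp5po, with MD above CD, where 5.99% of all genes did so. Atp5mk, a small membrane subunit, had 48.1, 20.8, 29.0 and 32.6 CPM in MD+CA, 74.1, 62.6, 31.0 and 53.9 CPM in MD and 37.8, 25.2, 25.9 and 48.1 CPM in CD livers. Its log2 fold changes were 0.69 ± 0.30 (adjusted p = 0.225) and -0.76 ± 0.30 (adjusted p = 0.153), with overlap in both. Atp5pd had log2 fold changes of -0.30 ± 0.26 and 0.27 ± 0.26. The inhibitor Atp5if1, which blocks ATP hydrolysis by the enzyme, had 88.8, 85.2, 75.3 and 55.1 CPM in MD+CA, 107.1, 71.2, 92.5 and 106.2 CPM in MD and 73.8, 86.0, 97.5 and 83.5 CPM in CD livers, with overlap throughout.

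**Figure D3:**
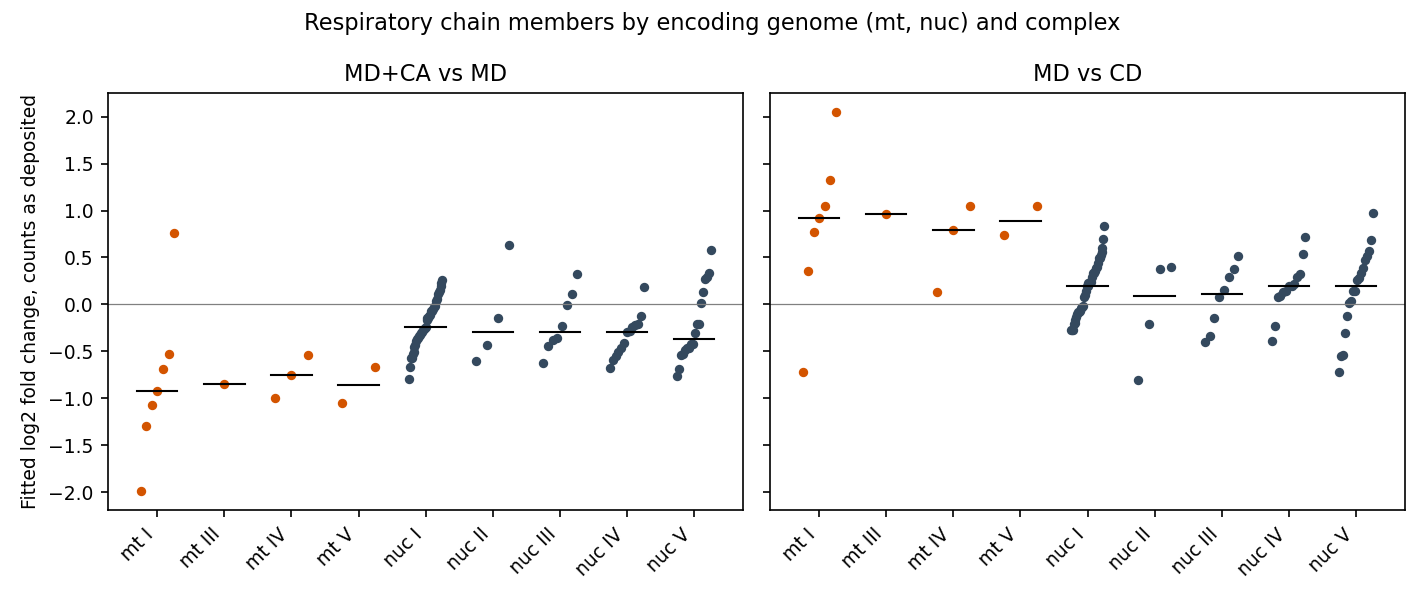
Fitted log2 fold changes of the 93 tested members on counts as deposited, by encoding genome (mt or nuc) and complex; left, MD+CA against MD, right, MD against CD. Each point is a gene and black lines are medians: 0.92 and -0.85 over all mitochondrially encoded members, 0.19 and -0.27 over all nuclear encoded members, for MD against CD and MD+CA against MD. mt-Nd6 is the mitochondrial point on the other side of 0 in each panel.

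Isoforms with known tissue preferences followed the liver pattern in most libraries. Cox4i1, the ubiquitous form of subunit 4, had 185.6 to 502.9 CPM, whereas Cox4i2, a form known from lung, had at most 0.919 CPM. Cox6a1 and Cox8a had at least 91.5 and 75.1 CPM in all libraries. Their heart and skeletal muscle forms were near 0, with 2.05 CPM of Cox6a2 and 0.491 CPM of Cox8b in MD+CA replicate 2 as the highest values. The muscle form Cox7a1 also peaked there, at 3.19 CPM, against 0.346 to 2.09 CPM in the other 11 libraries. This library is the one with 339.8 CPM of muscle markers. The liver form Cox7a2 had 14.6 to 54.5 CPM and the related Cox7a2l, which takes part in supercomplexes, 34.5 to 90.4 CPM. Of the genes for the identical c-ring subunit, Atp5mc3 had the highest level at 107.1 to 294.0 CPM, Atp5mc1 had 18.3 to 44.0 CPM and Atp5mc2 2.54 to 9.92 CPM, and the order held in every library, also per kilobase of transcript on average (236.1, 19.8 and 6.71 CPM). None of the tested isoforms was called in either comparison.

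Among nuclear encoded members, short transcripts had the larger differences and long ones the smaller or opposite ones. For MD against CD, the 8 members under 500 bases had a median log2 fold change of 0.42, the 23 of 500 to 700 bases 0.29, the 23 of 700 to 1000 bases 0.22, the 21 of 1000 to 2000 bases -0.02 and the 5 over 2000 bases -0.10. The medians of all genes tested in these bins were 0.34, 0.29, 0.18, 0.08 and 0.01. In these bins 7 of 8, 18 of 23, 18 of 23, 10 of 21 and 1 of 5 members were positive. The shares of all genes were 68.75%, 73.4%, 67.3%, 56.5% and 50.6%. For MD+CA against MD, the medians were -0.45, -0.29, -0.25, -0.15 and -0.03 for the members and -0.40, -0.31, -0.14, -0.04 and 0.03 for all genes. Here 2 of 8, 3 of 23, 3 of 23, 8 of 21 and 2 of 5 members were positive. The shares of all genes were 29.4%, 29.9%, 39.3%, 47.5% and 52.5%. The part of transcript length in the differences of the members was not tested. Across the 80 members, which share the same libraries and so are not independent, Spearman's rho between length and log2 fold change was -0.31 and 0.30, against -0.12 and 0.08 over all 13631 genes. Ndufa3 (509 bases), Cox6b1 (591) and Uqcr10 (438) are short, Ndufb1 (798) lies near the middle, and Sdha (2768) and Atp5f1a (2479) are long. The longest, Sdhc (3121 bases), had log2 fold changes of 0.38 and -0.44, opposite in sign to those of Sdha and Atp5f1a. Without the 3 short-fragment libraries, 69 of the 80 nuclear encoded members had positive log2 fold changes for MD against CD and 7 of 80 for MD+CA against MD. The medians of all genes in that fit were 0.004 and 0.02.

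**Figure D4:**
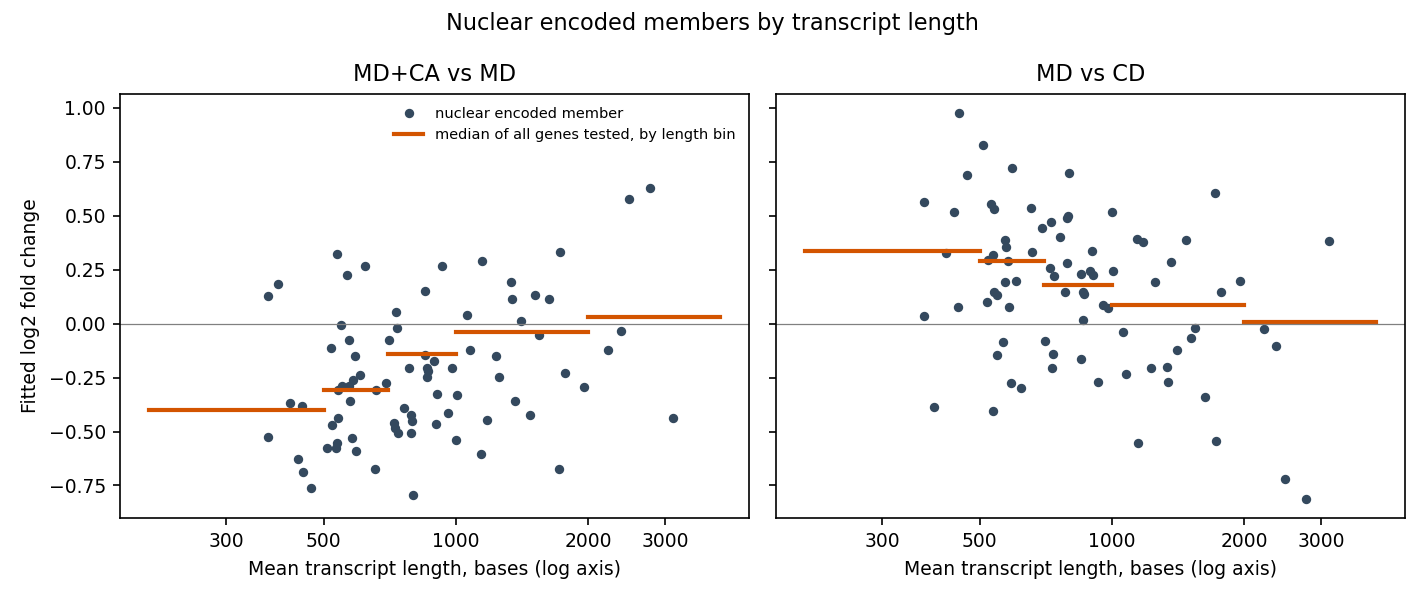
Fitted log2 fold change of the 80 nuclear encoded members (points) against mean transcript length in bases (log axis); left, MD+CA against MD, right, MD against CD. Orange lines give the median of all genes tested in each length bin (the outer bins are open-ended): 0.34 under 500 bases and 0.01 over 2000 bases for MD against CD, -0.40 and 0.03 for MD+CA against MD.

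Summed over genes, the mitochondrially encoded members of complex IV had 39710, 60200, 26730 and 33440 CPM as deposited in MD livers, all above the CD libraries at 20950, 23700, 23780 and 24500 CPM. In MD+CA livers the sums were 13320, 26270, 22050 and 32820 CPM, overlapping both other groups. mt-Co1 made up most of each sum (36750, 57610, 24440 and 29460 CPM in MD livers), and mt-Co2 and mt-Co3 each overlapped between MD and CD. The nuclear encoded members of complex IV summed to 1577 to 2516 CPM in MD+CA, 2117 to 3158 CPM in MD and 1996 to 2926 CPM in CD livers, with overlap. In complex I the mitochondrial sums were 12520 to 21950, 16700 to 51310 and 14470 to 18900 CPM and the nuclear sums 3176 to 4766, 3531 to 5107 and 3732 to 4744 CPM, in MD+CA, MD and CD livers, again with overlap. For complex II the sums were 515.2 to 904.8, 491.4 to 842.9 and 682.0 to 901.0 CPM in the same order of groups. In complexes III and V, the sums of either genome overlapped between all groups. The ratio of mitochondrially to nuclear encoded sums overlapped between all groups in complexes I, III, IV and V. For complex IV it was 5.34 to 20.8 in MD+CA, 8.465 to 28.4 in MD and 8.13 to 10.49 in CD livers.

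On counts as deposited, the ratio of all mitochondrially to all nuclear encoded reads was 2.78, 4.30, 3.22 and 6.20 in MD+CA, 6.25, 14.1, 3.12 and 5.17 in MD and 4.18, 3.40, 3.05 and 3.85 in CD livers. With copies added it was 3.47, 4.95, 3.82 and 6.94 in MD+CA, 7.3, 16.5, 3.87 and 5.99 in MD and 4.79, 3.90, 3.53 and 4.44 in CD livers. Either way, MD replicates 1, 2 and 4 lay above all CD libraries and MD replicate 3 within them. On the log2 scale the ratio as deposited averaged 1.98 ± 0.51 in MD+CA, 2.62 ± 0.90 in MD and 1.85 ± 0.20 in CD livers (SD, n = 4 each). The MD minus CD difference of 0.77 and the MD+CA minus MD difference of -0.64 became 0.16 and 0.14 without the 3 short-fragment libraries. Only replicates 3 and 4 then remained in MD. A test was not made on this ratio, whose members were chosen with earlier results of these data known.

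**Figure D5:**
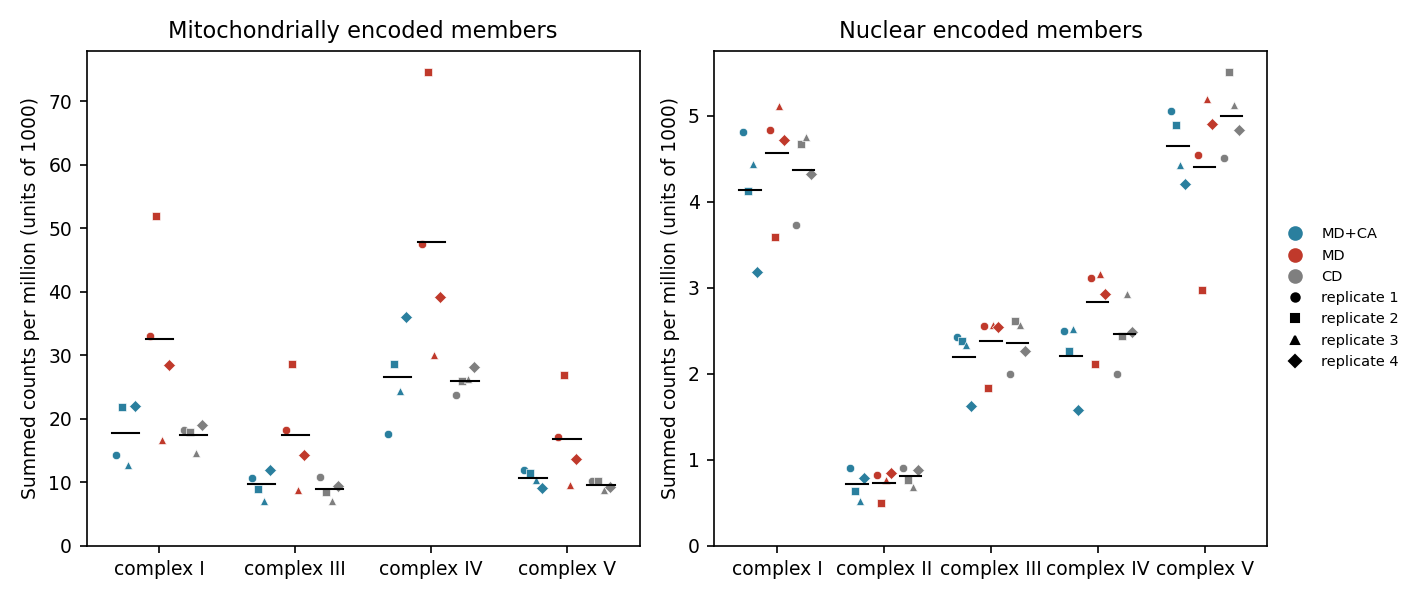
Summed CPM, plotted in units of 1000, of the mitochondrially (left) and nuclear (right) encoded members of each complex with copies added. Colours mark groups, symbols replicates and black lines group means. The 4 MD libraries lie above the 4 CD libraries for mitochondrially encoded complex IV, with MD replicate 2 the highest in each mitochondrial sum, while the nuclear sums overlap. mt-Co1 is the largest part of the mitochondrial complex IV sum.

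Promoters of nuclear encoded members were compared with all promoters because nuclear respiratory factor 1 (NRF1) and GABP, an ETS protein, are known regulators of these genes. RefSeq windows of 250 bases before to 50 after the start (GRCm38.p6) were matched for 70 of the 89 nuclear gene identifiers, which are 69 genes, and each motif was sought on both strands. The NRF1 letters GCGCATG, part of its longer known motif, were found in 13 of 69 members (18.8%) and in 4.41% of 27025 genes. The ETS letters CCGGAAG were found in 16 members (23.2%) and 9.93% of genes, the estrogen-related receptor letters AAGGTCA in 8 (11.6%) and 5.38%, and the YY1 letters AAGATGG, also part of a longer motif, in 11 (15.9%) and 7.28%. The E-box CACGTG was found in 6 (8.70%) and 8.09%. The 27025 genes were not limited to those expressed in liver, and base composition was not matched. A gene counted if any of its windows matched (32851 windows in all). The windows below show the NRF1 match in capitals in 4 members, a c-ring gene, the iron-sulfur subunit of complex II (where the match is on the opposite strand), a complex IV subunit and a complex I accessory subunit.
Atp5mc2, chr15:102671063-102671109, minus strand: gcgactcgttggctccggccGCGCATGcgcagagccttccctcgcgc
Sdhb, chr4:140961198-140961244, plus strand: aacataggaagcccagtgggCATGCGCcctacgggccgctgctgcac
Cox6a1, chr5:115349094-115349140, minus strand: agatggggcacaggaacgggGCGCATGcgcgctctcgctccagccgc
Ndufa11, chr17:56717682-56717728, plus strand: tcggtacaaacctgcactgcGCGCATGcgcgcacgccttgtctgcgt
The 13 members with the NRF1 letters had a median log2 fold change of 0.15 for MD against CD, against 0.20 for the 53 tested members without, and -0.29 against -0.27 for MD+CA against MD. The 11 with the YY1 letters had medians of 0.15 and -0.21, against 0.20 and -0.29 for the 55 without. These contrasts depended on the length of the motif, and the longer forms were searched first. With CGC required after the NRF1 letters, 5 members (7.25%, against 1.07% of genes) matched, with medians of 0.47 and -0.44, against 0.19 and -0.26 for the 61 without. With CGGC required after the YY1 letters, 4 members (5.80%, against 0.755%) matched, with medians of -0.14 and 0.15, against 0.20 and -0.29 for the 62 without. These are descriptions of few genes, which also differ in transcript length.

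Of the assembly factors of complexes I (16 genes), II (4), III (6), IV (24) and V (5), none was called by edgeR in any comparison, and their median log2 fold changes for MD against CD were 0.00, 0.11, 0.18, 0.20 and -0.18. Among 7 partners of the chain outside the rule, Coq10b, which binds ubiquinone, averaged 9.69 ± 2.73 CPM in MD+CA, 31.7 ± 5.2 CPM in MD and 26.4 ± 12.2 CPM in CD livers (SD, n = 4 each). It fell by 1.71 ± 0.29 in MD+CA against MD (edgeR adjusted p = 0.015), and by 1.44 ± 0.29 in MD+CA against CD (edgeR adjusted p = 0.043). Of all genes tested, 2.71% and 0.528% were called in these comparisons. Without the 3 short-fragment libraries Coq10b fell by 1.49 in MD+CA against MD, with an adjusted p of 0.104. Cytochrome c (Cycs) averaged 83.2 ± 9.2 CPM in MD+CA, 107.6 ± 7.6 CPM in MD and 74.5 ± 7.3 CPM in CD livers and was not called (edgeR adjusted p = 0.131 for MD against CD and 0.200 for MD+CA against MD).

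Of 16 genes of mitochondrial transcription and DNA maintenance, 1 was called, in MD+CA against MD, where 2.71% of all genes were called and 1.64% called lower. Mterf3, a repressor of mitochondrial transcription in mice, averaged 8.59 ± 2.28 CPM in MD+CA, 17.6 ± 4.7 CPM in MD and 10.8 ± 1.4 CPM in CD livers (SD, n = 4 each). It fell by 1.03 ± 0.23 (edgeR adjusted p = 0.033), a call lost without MD replicates 1, 2 or 4, MD+CA replicates 2 or 3, or the 3 short-fragment libraries (adjusted p = 0.198). It was also lost with a transcript length offset (adjusted p = 0.060), on the 2 groups only (0.094) and with the fragment length covariate (0.125). Tfam, which packages and activates the mitochondrial genome, averaged 58.3 ± 5.6, 47.4 ± 14.8 and 64.4 ± 12.4 CPM in MD+CA, MD and CD livers, and the mitochondrial RNA polymerase Polrmt 9.14 ± 1.85, 14.8 ± 3.2 and 11.5 ± 1.9 CPM. Of 18 genes of mitochondrial RNA processing and decay and 13 tested nuclear regulators of mitochondrial genes, none was called by edgeR. The coactivator Ppargc1a averaged 17.9 ± 2.3, 30.4 ± 11.6 and 23.0 ± 2.6 CPM and its partner Esrra 14.9 ± 5.8, 28.0 ± 3.5 and 20.9 ± 3.2 CPM in the same order of groups (edgeR adjusted p = 0.082 and 0.060 for MD+CA against MD). Among the other regulators tested, Gabpa, Nrf1, Yy1 and Pprc1 had their lowest average in MD. Ppargc1b, Esrrg, Ppara, Gabpb1 and Nrip1 had their highest average in MD, while Tfe3 was lowest in CD and Myc lowest in MD+CA. In the same order of groups, Gabpa averaged 54.6 ± 17.5, 36.7 ± 10.8 and 64.2 ± 13.6 CPM and Nrf1 24.8 ± 8.2, 19.1 ± 3.9 and 24.2 ± 6.0 CPM. Yy1 averaged 57.7 ± 14.7, 53.0 ± 4.7 and 76.0 ± 4.7 CPM.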

How the data were processed

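Poly(A)-selected liver RNA was sequenced in 12 libraries (4 per group). Of tools, fastp, Salmon 1.10.3 and DESeq2 are named in the submitters' processing notes, with the build GRCm39. Their options, the annotation and the strandedness are not stated there. Each deposited table gives expected counts per transcript, not normalized, TPM values scaled for length and depth, and effective lengths, per the file headers. From these, the expected counts of a gene's transcripts were added up and the sums rounded to whole numbers. Genes passing edgeR's filterByExpr (minimum count 10) numbered 13631. One edgeR 4.0.16 quasi-likelihood model with TMM scaling and a mean per group was fitted to the 12 libraries, with Benjamini-Hochberg adjustment over all genes and a threshold of 0.05. CPM values are TMM-scaled. The standard error (SE) is the log2 fold change over the square root of F.

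Nuclear copies were pseudogenes at least 99% identical over at least 90% of their length and 100 bases (blastn, GENCODE M21 transcripts matched by gene identifier); adding their reads was chosen after seeing the data, as was leaving out the 3 libraries with the shortest fragment allowance. TPM served to rank members and in 1 alternative. Genes named were the 13 mitochondrially encoded members, those called, in each complex those with the smallest p of either comparison and the highest TPM, and tissue isoforms; other subunits, regulators and partners were named after their values were seen. Members and lists were chosen with earlier results of these data known. The model was also run on counts simulated from its fitted dispersions. These held no splitting of reads between genes and copies and no fragment length differences. That run cannot show whether the calls here hold. Intervals of depth cover counting error only. Alternatives were limma 3.58.1 voom, DESeq2 1.42.0, other scalings and filters, and leaving out each library. Nothing here was drawn from coordinates of the deposited build.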

Additional observations from a re-analysis of the deposited data

Results flagged for a closer look

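With 4 libraries per group, Dixon's criterion marks a library far from the other 3, and chance alone marks about 1 in 20 groups; 111 gene and group combinations were looked at and 7 were marked. CD replicate 1 was low for mt-Co1, at 19140 CPM. MD replicate 2 was low for Ndufa6, at 345.6 CPM. CD replicate 4 was high for Atp5mc1, at 33.1 CPM.

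MD+CA replicate 3 was high for 3 small complex IV genes at once, with 172.5 CPM of Cox6a1, 193.4 CPM of Cox8a and 164.1 CPM of Ndufa4. MD+CA replicate 2 was high for the muscle isoform Cox7a1, at 3.19 CPM, and is the library with 339.8 CPM of muscle markers. The part of these libraries in the group differences was not tested beyond leaving each out.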

How the results depend on the processing

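In both comparisons with MD, the medians over all mitochondrially and over all nuclear encoded members kept their directions in the settings tried. For MD vs CD, the nuclear complex II median turned to -0.12 with the covariate and that of complex III to -0.04 with the length offset. Genes called in MD vs CD (12) became 481 without a low-count filter, 629 with DESeq2, 374 with limma voom, 2 with a length offset, 36 on 2 groups only and 6 with fragment length as covariate, and 0 to 74 with 1 library left out; in MD+CA vs MD (369) they became 1017, 1214, 197 (length offset), 90 (2 groups), 142 (covariate), 664 (replicate block) and 45 (without the 3 short-fragment libraries), and 111 to 968; in MD+CA vs CD (72) 390, 334, 191 (voom), 34, 121 (protein-coding only), 43, 154 (block) and 164, and 19 to 172. Members called in MD vs CD (0) became 1 without a filter, 6 with DESeq2 and 3 with voom (0 in each fit without 1 library); in MD+CA vs MD (1) 3 without a filter, 5 with DESeq2, 3 with the block, 3 with copies added, 0 on 2 groups, 0 with the covariate and 0 without the 3 libraries, and 0 to 7 with 1 library left out; in MD+CA vs CD (0) 1 (Cox6a2) without a filter. The mitochondrial median of MD vs CD was 0.37 without the 3 libraries, and 0.55 to 1.17 without 1; the nuclear one was 0.12 to 0.29. The log2 ratio of MD+CA minus MD was 0.14 without the 3, and -0.97 to -0.24 without 1; that of MD minus CD was 0.37 to 1.099. Signs turned, none of them in a called result, for mt-Nd6 (0.55 and -0.63 with the covariate, -0.21 without MD+CA replicate 2, with a range of -0.21 to 1.11 in MD+CA vs MD), mt-Atp6 in MD vs CD (-0.36 with voom, -0.14 with the covariate, -0.42 without the 3) and MD+CA vs MD (0.44, 0.22 and 0.40), mt-Co2 in MD vs CD (-0.048 with the block, -0.33 to 0.35 without 1 library, negative without MD replicate 4), Cox4i1 (-0.079, covariate), Cox7a2l (0.041 without the 3 in MD vs CD, and -0.32 to 0.041 without 1 library in MD+CA vs MD, positive without MD replicate 4 or MD+CA replicate 2), Atp5pd (-0.024 without the 3), Cox8a (-0.048 to 0.52, negative without CD replicate 1 or MD replicate 3) and Cox7a1 in MD+CA vs MD (-0.027 with voom, -0.042 with the block, -0.079 with the covariate, -0.84 to 0.51 without 1 library, negative without MD+CA replicate 2 or MD replicate 2); the cause was not tested. Same-numbered libraries correlated from -0.08 to 0.35 in their deviations from group means. Differently numbered libraries were not compared, so these values cannot decide whether replicate numbers pair the libraries. Upper-quartile scaling moved the median of all genes in MD vs CD to 0.11. At 9089585 to 14492587 reads, members near 0 CPM rest on few reads. Adding copies, leaving out the 3 libraries and both motif lengths were chosen after seeing the data.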
